A study of Mus musculus with 2 samples.

Results

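Small nucleolar RNAs (snoRNAs) and small Cajal body RNAs (scaRNAs) were examined for cover by H3K79me2. This is dimethylated lysine on histone H3, which Dot1l writes and which is found mainly near the start of genes that are being transcribed. The members were all GENCODE M21 mouse genes of type snoRNA or scaRNA on chromosomes 1 to 19 and X. There were 1558 of them, 1507 snoRNA and 51 scaRNA records, among 53843 annotated genes on the same chromosomes. Overlapping records of the same strand reduce them to 1529 distinct loci. The ChIP-seq used primary macrophages grown from C57BL/6J mouse bone marrow, with no stimulation, treatment or transgene named, in 1 group of 2 biological replicates. Age and sex are not recorded, and both replicates carry the same donor identifier. Nothing in the labels tells whether animals or cultures were separate, so the difference between replicates may be technical. The data are 4 peak lists on mm10: replicate 1's list, replicate 2's list, a pooled list made from both sets of alignments, and what is called the replicated list here, which the authors derived from both replicates.

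A record was called covered where at least 50% of its bases lay under the replicated list. A host is an annotated gene, other than a small RNA gene, whose span contains the whole record. A marked gene has 200 bp or more under the list within 3 kb downstream of its outermost annotated 5′ end. Read depth is unknown, since only peaks are given, and a covered record says that a peak lies over it, not how strong the mark is there. In bulk chromatin, a mark in fewer cells and a weaker mark in all cells cannot be told apart. With 1 group and no second condition, no test was run. Shares are given as descriptions, beside the same share over other genes.

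Most mammalian snoRNAs have no promoter of their own. They lie in introns of host genes that RNA polymerase II transcribes, and are released from the spliced intron and trimmed. Box C/D snoRNAs guide the methylation of riboses in ribosomal RNA, box H/ACA snoRNAs guide the conversion of uridine to pseudouridine, and scaRNAs do the same for the RNAs of the spliceosome. Hosts are often genes for ribosomal proteins and translation factors, or non-coding genes of the Snhg (small nucleolar RNA host gene) series, whose spliced RNA has in many cases no known protein product. A few members, such as U3 and U8 (Snord118), are known to be transcribed from promoters of their own. In ChIP data a peak over an intronic snoRNA cannot be told apart from a peak over its host.

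Gas5, a non-coding host on chromosome 1 with box C/D snoRNAs in successive introns, shows how a peak divides the loci of a host. Its 9 distinct loci follow in the order of transcription, all on the plus strand of GRCm38 (mm10) and all in introns, with the sequence of GENCODE M21. The C box core (TGATGA, starting within the first 20 bases) and the D box (CTGA, within the last 20 bases), which mark this class of snoRNA, are in capitals where they were found. The family names are those of RefSeq.

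Gm26224, SNORD74 family, chr1:161035394-161035473, plus strand: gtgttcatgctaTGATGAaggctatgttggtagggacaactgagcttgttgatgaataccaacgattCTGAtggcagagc
Gm22489, SNORD75 family, chr1:161035850-161035911, plus strand: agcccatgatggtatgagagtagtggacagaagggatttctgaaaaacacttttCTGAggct
Gm22357, SNORD24 family, chr1:161036057-161036139, plus strand: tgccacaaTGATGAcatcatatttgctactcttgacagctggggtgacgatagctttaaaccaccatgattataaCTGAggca
Gm23212, SNORD44 family, chr1:161036682-161036741, plus strand: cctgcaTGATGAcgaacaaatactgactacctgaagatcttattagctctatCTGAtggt
Snord78, chr1:161036984-161037049, plus strand: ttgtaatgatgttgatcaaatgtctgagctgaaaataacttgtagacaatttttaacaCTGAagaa
Mir5117, chr1:161037356-161037439, plus strand: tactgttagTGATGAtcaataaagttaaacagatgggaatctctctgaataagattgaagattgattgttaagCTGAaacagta
Snord80, chr1:161037601-161037681, plus strand: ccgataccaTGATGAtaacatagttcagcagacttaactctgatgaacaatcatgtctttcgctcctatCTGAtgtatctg
Snord47, chr1:161038082-161038158, plus strand: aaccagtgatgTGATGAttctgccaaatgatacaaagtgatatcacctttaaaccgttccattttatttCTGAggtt
Gm25789, SNORD81 family, chr1:161038308-161038383, plus strand: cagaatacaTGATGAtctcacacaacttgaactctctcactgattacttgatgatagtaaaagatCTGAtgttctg

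The replicated list has 1 peak over Gas5, of 1471 bp and with an authors' fold of 5.95 over the control, running from 923 to 2394 bp from the 5′ end of the gene. The first 4 loci, Gm26224, Gm22489, Gm22357 and Gm23212, lie whole under it. The other 5, from Snord78 to Gm25789, have no base under it, and Snord78 begins 168 bp beyond the end of the peak. The replicates set the end of the mark at different places. Replicate 1's peak covers 68 of the 80 bases of Gm26224, all of Gm22489 and Gm22357, and no base of Gm23212. Replicate 2's peak covers the same 4 loci whole as the replicated list. Neither replicate has a base on the other 5 loci.

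Hspa8, which encodes the constitutive heat shock cognate chaperone and hosts 3 copies of U14 (the SNORD14 family, needed to process the RNA of the small ribosomal subunit), divides the copies of a family in the same way. The box motifs are in capitals.

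Snord14c, SNORD14 family, chr9:40803583-40803668, plus strand: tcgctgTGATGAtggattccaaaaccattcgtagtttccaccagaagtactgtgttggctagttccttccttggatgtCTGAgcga
Snord14d, SNORD14 family, chr9:40803995-40804080, plus strand: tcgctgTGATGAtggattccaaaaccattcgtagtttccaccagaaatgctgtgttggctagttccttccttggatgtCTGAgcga
Snord14e, SNORD14 family, chr9:40804748-40804837, plus strand: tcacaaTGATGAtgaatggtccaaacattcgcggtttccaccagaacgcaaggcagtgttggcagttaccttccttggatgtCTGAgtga

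Snord14c, 2642 bp from the 5′ end of Hspa8, was covered in both replicates. Snord14d, at 3054 bp, was covered in the replicated list and in replicate 2, with no base in replicate 1. Snord14e, at 3809 bp, had no base in the replicated list or in either replicate's. Distances here and below are from the 5′ end of the host to the middle of the record.

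Of the 1558 records, 198 were covered, or 12.7%, and 193 of the 1529 distinct loci. Among all annotated genes 6.73% have at least 50% of their bases under the same list, and among miRNA and snRNA genes, which are of like length, 6.68%. The records fall into 4 classes by their host. Of 378 records inside a protein-coding gene on the same strand, 136 were covered (36.0%). Of 319 inside a non-coding gene on the same strand, 29 were covered (9.09%), but 221 of these 319 lie in Snhg14 or Rian, hosts of the imprinted snoRNA clusters described below, and without them the share is 29 of 98 (29.6%). Of 224 records that lie only inside a gene of the opposite strand, 30 were covered (13.4%). Of 637 with no host on either strand, 3 were covered (0.471%). For comparison, 12.5% of miRNA and snRNA genes with a same-strand coding host are under the list. The 198 covered records lie under 143 peaks, so many of them share a peak.

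**Figure D1:**
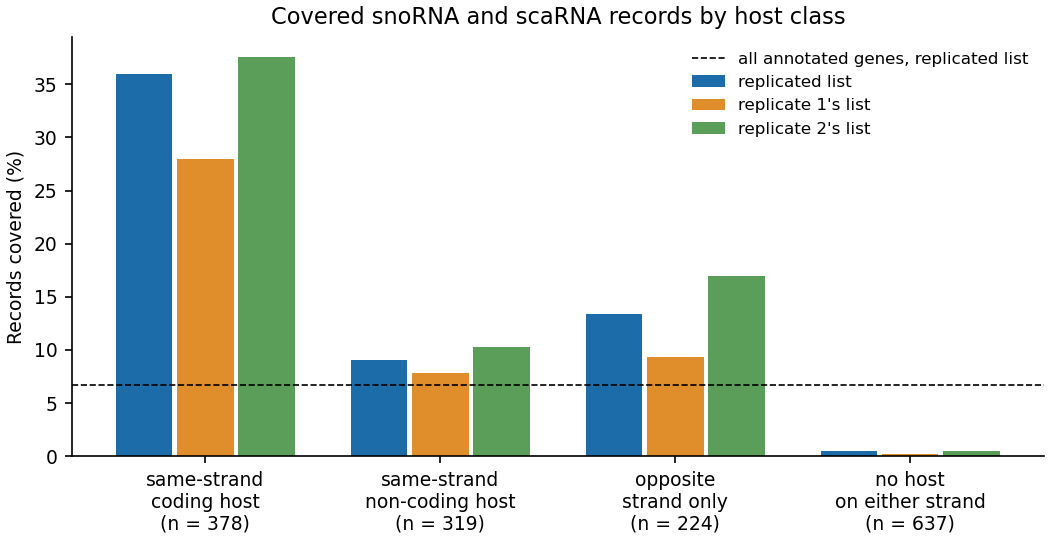
Share of snoRNA and scaRNA records covered, in percent, by host class, for the replicated list and for each replicate's list; n is the number of records and the dashed line is the share of all annotated genes under the replicated list (6.73%). Records in same-strand coding hosts reach 36.0% in the replicated list, and records with no host 0.471%.

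The replicates gave the classes in the same order with same-strand coding hosts highest and no host lowest. Replicate 1's list covered 153 records (9.82%, where it covered 4.05% of all genes) and replicate 2's list 216 (13.9%, where it covered 8.39%). Replicate 2's list covered 97.4% of replicate 1's records, and replicate 1's list 69.0% of replicate 2's. Replicate 2's list is the larger of these lists, at 114 Mb against 63.5 Mb. Of the 198 records of the replicated list, 149 were covered in both replicates, 45 in replicate 2 alone, 3 in replicate 1 alone and 1 in neither. The 3 records covered in replicate 1 with no base in replicate 2 were Snord35a of Rpl13a, Gm24616 of Eif4a2 and Gm24453 of Snhg1, the last of which is not covered in the replicated list. All 3 lie toward the 3′ end of replicate 1's peak in the host. The pooled list covered 12 records that the replicated list did not, among them Gm24453, Gm22744 and Gm22680 of Snhg1 and Snora26 of Dancr.

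Names and families separate the records further. Of 149 records with a Snord, Snora or Scarna symbol, 68 were covered (45.6%): 42 of 98 Snord, 25 of 42 Snora and 1 of 9 Scarna records. Of 1385 records with a predicted-gene symbol (Gm and a number), 125 were covered (9.03%). Within same-strand coding hosts the shares were 50 of 91 (54.9%) for the former and 81 of 274 (29.6%) for the latter. By box class, 77 of 385 C/D records (20.0%), 88 of 766 H/ACA records (11.5%) and 7 of 53 scaRNAs were covered. A further 354 records could not be given a box class, and 26 of them were covered (7.34%). Of these 354, 22 hold both the C box core and the D box. All 77 covered C/D records had a same-strand host, but of the 385 only 5 lie solely opposite to a gene and 26 have no host. Without the records in hosts of the imprinted clusters the C/D share is 77 of 180 (42.8%). The H/ACA share also rests on 1 large family: 443 of the 766 records are SNORA17 copies other than Snora17, and 8 of the 443 were covered.

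Covered records lay mostly in hosts marked at the 5′ end and near that end. The 697 records with a same-strand host lie in 332 hosts, of which 196 were marked and 110 held a covered locus. Among all protein-coding genes 30.6% are marked, and among long non-coding genes 7.80%, whereas 176 of the 265 coding hosts (66.4%) and 20 of the 67 non-coding hosts (29.9%) were. Of the 110 hosts with a covered locus, 108 were marked. The exceptions are Mfsd13a and Mia2, whose only peaks begin 17331 and 35999 bp from the 5′ end. Of 323 records in marked hosts, 163 were covered (50.5%), and of 374 in unmarked hosts 2 were. These counts are partly fixed by the definition, since a peak over a record within the first 3 kb of its host also counts toward the marking of that host. Of the records with no base in those first 3 kb, 53 of 192 in marked hosts (27.6%) and 2 of 355 in unmarked hosts (0.563%) were covered, though a peak may reach from there to the record. Among records in marked hosts the share was 134 of 272 (49.3%) for coding and 29 of 51 (56.9%) for non-coding hosts. All 165 covered same-strand records lie in an annotated intron of the host, and none of the 132 that lie in no intron was covered. Of these 165, 79 also touch an exon of some annotated transcript of the host. Among records in an intron, 86 of the 412 that touch no exon (20.9%) and 79 of the 153 that touch one (51.6%) were covered.

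Of the 160 uncovered records in marked hosts, 144 lie 3′ of all of the host's peaks, 12 lie between peaks, 2 lie 5′ of them and 2 are touched by a peak over less than 50% of their bases. Covered records had a median distance of 2198 bp from the 5′ end and uncovered ones 71766 bp, or 2126 bp and 15692 bp within marked hosts. The share covered was 29 of 40 (72.5%) under 1 kb, 79 of 107 (73.8%) from 1 to 3 kb, 39 of 111 (35.1%) from 3 to 10 kb, 10 of 82 (12.2%) from 10 to 30 kb and 8 of 357 (2.24%) beyond. Within marked coding hosts these shares were 94.4%, 92.5%, 50%, 18.4% and 11.7%. The bases of all marked coding genes were covered to 55.8%, 86.9%, 58.1%, 33.0% and 13.1% at the same distances. From 1 kb onward the records thus stood above the bases of marked genes in 1 bin and below them in 3, and under 1 kb they stood above, on 18 records.

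**Figure D2:**
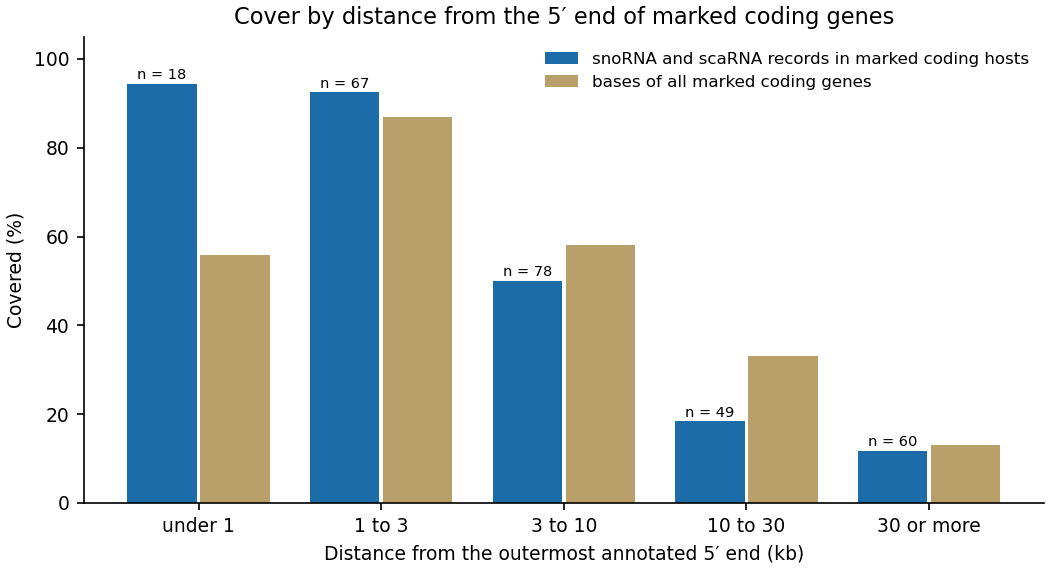
Share covered, in percent, by distance from the outermost annotated 5′ end in kb: blue, snoRNA and scaRNA records in marked coding hosts (n above each bar); tan, bases of all marked protein-coding genes. Records fall from 94.4% under 1 kb to 11.7% at 30 kb or more.

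In 31 hosts some loci were covered and others were not. In 28 of them every covered locus lay nearer to the 5′ end than every uncovered one, with medians of 1979 bp for 49 covered and 3660 bp for 48 uncovered loci. In 3 hosts the order was the other way, and 2 of them are described here. In the non-coding gene 2410006H16Rik, Snord49b at 238 bp lies 16 bp before the peak, and Snord49a and Snord65 lie under it. In Khdc4 the uncovered Gm25820 lies between peaks, at 8191 bp, and the covered Gm25945 at 21422 bp was covered in replicate 2 with no base in replicate 1.

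**Figure D3:**
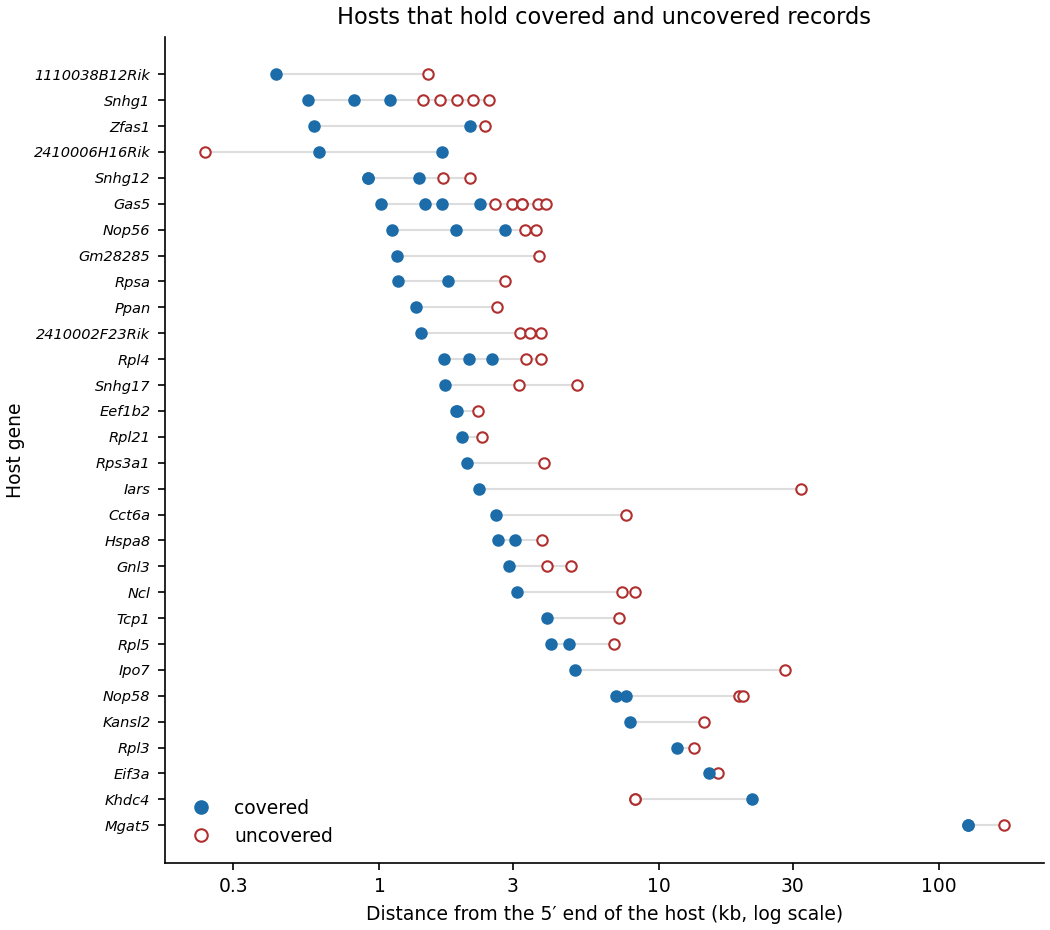
Distance of each record from the 5′ end of its host, in kb on a log scale, in 30 of the 31 hosts that hold covered (filled) and uncovered (open) records. In 28 hosts all filled points lie to the left of all open ones, and the exceptions drawn are 2410006H16Rik and Khdc4.

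Ribosomal protein genes were the hosts with the highest share among the groups of hosts counted. Of 58 records in 30 ribosomal protein hosts, 49 were covered (84.5%), 42 in replicate 1 and 47 in replicate 2. All 30 hosts were marked, and 29 held a covered locus. For comparison, of all records with a base in the first 3 kb of a marked same-strand host, 110 of 131 were covered (84.0%). Rpl13a, of the large subunit, held Snord32a, Snord33, Snord34 and Snord35a under a single peak of 2519 bp with a fold of 18.8. The first 3 were covered whole in both replicates, and Snord35a, the farthest from the 5′ end at 2371 bp, in replicate 1 alone. Rpl7a, Rps12, Rpl23a and Rpl17 each held 3 of 3 loci covered. The peak in Rps12 reached the end of the gene, and Snora33, the farthest at 1865 bp, had no base in replicate 1. In Rpl4, 3 of 5 loci were covered: Gm23344, Snord16a and Gm22571 in both replicates, while Gm23136 had 33.3% of its bases under a peak and Gm22455, at 3783 bp, none. Rpl39, marked, was the host without a covered locus: its Snora69 at 2426 bp had no base in either replicate.

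Translation factor hosts, taken by a symbol starting Eif or Eef, had 13 of 18 records covered (72.2%), in 6 of 9 hosts. The symbol also takes in Eif2ak3, a kinase gene. Eif4a2, an RNA helicase of the cap-binding complex, had the most covered loci of any host, 5 of 5, under a peak of 4456 bp with a fold of 18.8. Snord2, Gm24201 and Snora81 were covered whole in both replicates. Gm26447 had 25 of 129 bases under replicate 2's list, and Gm24616, the farthest at 4242 bp, had none. Its paralog Eif4a1 had 3 of 3 covered in both replicates. The elongation factor gene Eef1b2 held the record nearest below the limit, Snora41, with 59 of 132 bases under the replicated list (44.7%), 130 under replicate 2's and none under replicate 1's. The record nearest above the limit was Gm22767, a scaRNA in Ppp1r8, with 87 of 165 bases (52.7%). Snord66 in Eif4g1, an unmarked host, was not covered, and neither were Gm23262 in Eif4g2 and Gm23346 in Eif2ak3, both marked hosts.

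Hosts listed as encoding nucleolar, ribosome-assembly or related chaperone proteins had 12 of 24 records covered, 9 in replicate 1 and 15 in replicate 2, and all 9 hosts were marked. The list also takes in Rcc1, whose 2 loci, both covered, are counted again among the Snhg records below. Nop56, a core protein of box C/D particles, held 3 of 5 loci under a peak that ends 2910 bp from its 5′ end. Snord110 and Gm24451 were covered in both replicates and Gm23187 in replicate 2 alone. Beyond it lay Gm23650, covered in replicate 2 alone, and Snord57, with no base in either replicate. Nop58, its partner in the same particles, has 4 loci in a gene of 34074 bp. Snord70 and Gm26293, at 7006 and 7580 bp, were covered whole in both replicates, and Gm26287 and Snord11, at 19327 and 19861 bp, had no base. In Ncl (nucleolin), Snord82 at 3105 bp was covered in both replicates, and Gm24148 and Snora75, at 7353 and 8166 bp, were not. Wdr43, a factor of small subunit assembly, was marked and had none of 3 loci covered, the nearest of which, Snord92, lies at 15428 bp. Replicate 1's list has no base on the 3, and replicate 2's covers Snord53 whole and Gm22858 over 45 of its 76 bases. Dkc1, the pseudouridine synthase of H/ACA particles, was marked over 546 bp, and its Gm25520 at 5614 bp was not covered.

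**Figure D4:**
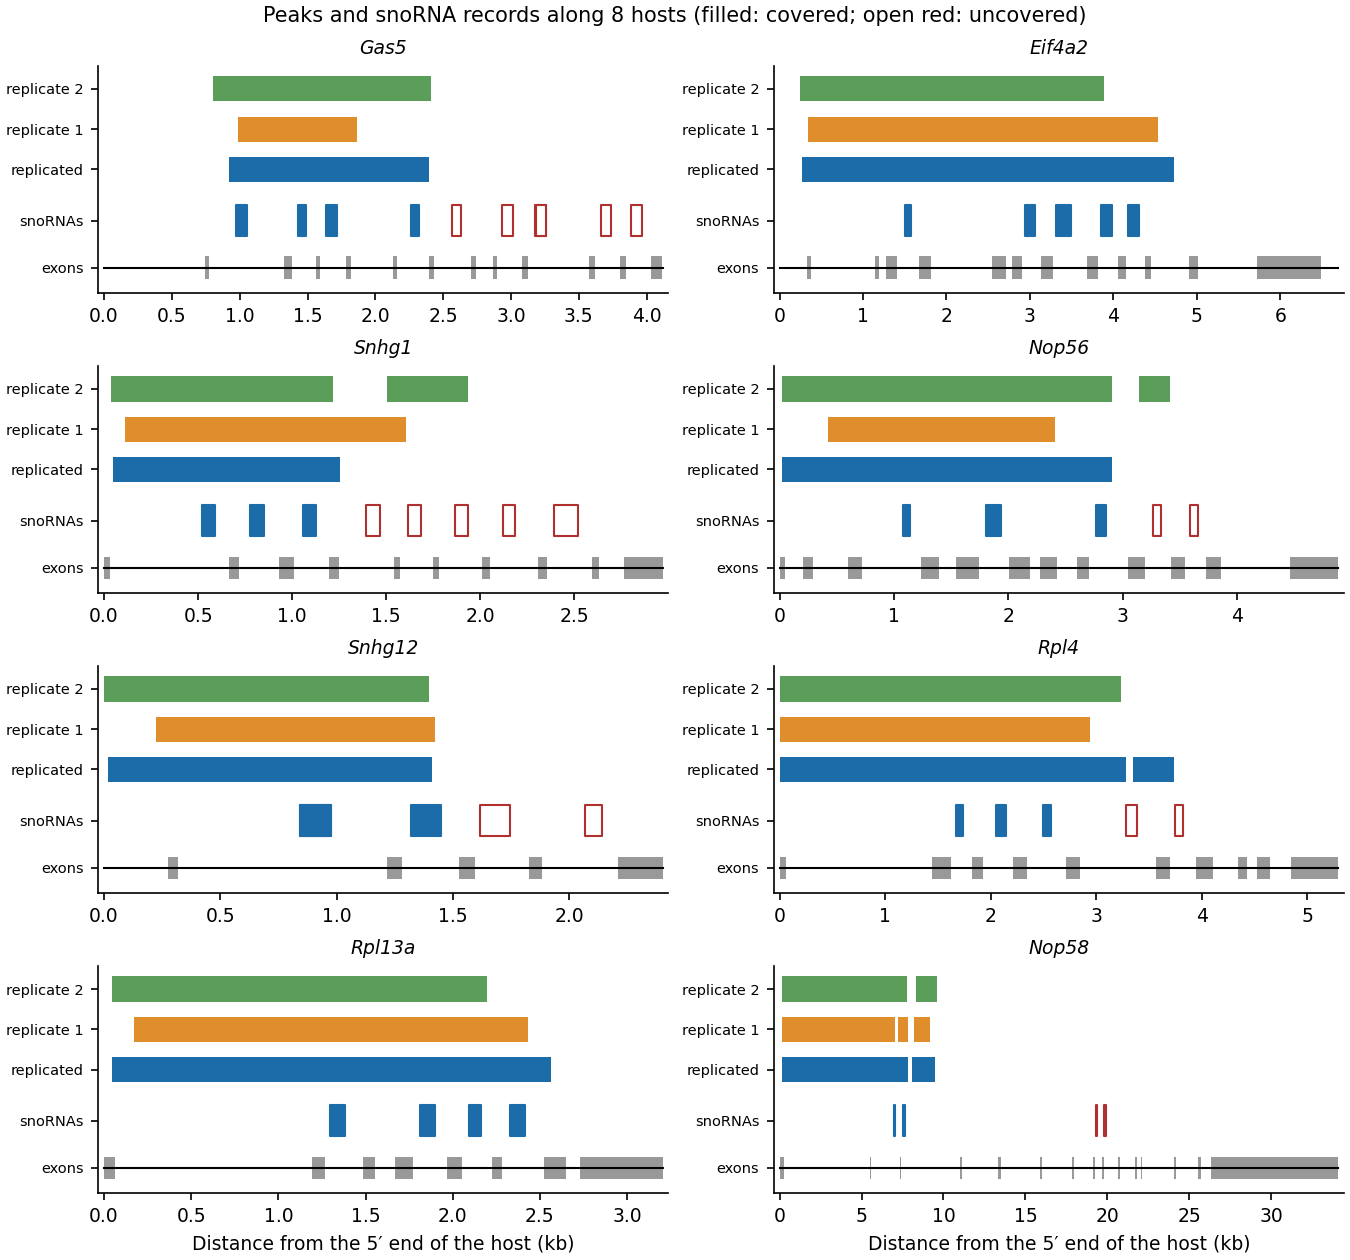
Peaks of the replicated list and of each replicate, snoRNA records (filled blue, covered; open red, uncovered) and exons of the transcript with the most exons, along 8 hosts, by distance from the host's 5′ end in kb. In Gas5, Snhg1, Snhg12, Nop56 and Nop58 the uncovered records follow the end of the peak, in Rpl4 they lie 3′ of the covered ones, and in Rpl13a and Eif4a2 all records are covered.

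The Snhg genes and Gas5, without Snhg14, held 39 records, of which 19 were covered (48.7%), 19 in replicate 1 and 21 in replicate 2. Snhg1, whose 8 box C/D snoRNAs follow each other in introns, was covered for 1209 bp from 46 to 1255 bp. Gm25855, Gm25894 and Gm24452, of the SNORD25, SNORD26 and SNORD27 families, were covered whole in both replicates. The next 3 loci differed between replicates: Gm24453 was covered in replicate 1 alone, and Gm22744 and Gm22680 in replicate 2 alone, where a separate peak covers them. Gm23246 and Snord22 had no base in either replicate. Snhg12 had Snora16a and Snora44 covered and Snora61 and Snord99 not. Zfas1, another non-coding host that is not counted among these 39 records, had 2 of 3 SNORD12 copies covered, Gm25878 in both replicates and Gm23201, at 2108 bp, in replicate 2 alone, and its Snord12 at 2387 bp was not covered. Snhg17 had Gm23925 covered and Gm26003 and Gm24411 not.

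In 7 further Snhg genes every locus was covered, in both replicates. These were Snhg10 with Scarna13, Snhg15 with Snora9, Snhg20 with Gm26083, Snhg6 with Snord87, Snhg8 with Snora24, Snhg9 with Snora78, and Snhg3 with Snora73a and Snora73b. Snhg3 shares its span and strand with the coding gene Rcc1, so the peak, with a fold of 14.8, cannot be assigned to either. Snhg9 lies inside the span of the coding gene Rps2, on the opposite strand, so the peak over it cannot be assigned to either gene. Snhg5 was marked over 744 bp, but its Snord50b and Snord50a lie 70 and 338 bp beyond the peak and were not covered. Snhg11, which GENCODE types as protein-coding, and Snhg18 were not marked, and no list of the 3 had a peak base in them. Scarna13 is a long scaRNA of 275 bases, and its ACA box is in capitals. The family printed with it is RefSeq's product name, which differs from the GENCODE symbol.

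Scarna13, SCARNA1 family, chr12:105031075-105031349, minus strand: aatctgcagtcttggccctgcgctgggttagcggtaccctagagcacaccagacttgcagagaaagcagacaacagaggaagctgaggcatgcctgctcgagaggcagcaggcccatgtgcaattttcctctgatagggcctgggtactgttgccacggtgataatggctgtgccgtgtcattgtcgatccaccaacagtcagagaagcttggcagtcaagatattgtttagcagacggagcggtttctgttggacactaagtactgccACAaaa

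No record of the imprinted snoRNA clusters lay under a peak. The Snrpn and Snhg14 region on chromosome 7 holds 210 records, mostly of the SNORD115 and SNORD116 families, whose host is a long transcript made in neurons from the paternal chromosome. None of the 210 was covered in any list of the replicates. Snhg14 itself, of 667836 bp, has no base under the replicated list or under either replicate's list, and the record nearest to a peak is 58899 bp from it. On chromosome 12 the 13 records in Rian were not covered, and their nearest peak is 737551 bp away. From the start of Meg3 to the end of Mirg, around Rian, lie 10 further records, 8 of them of the SNORD113 and SNORD114 families. None of the 10 was covered in any list, and they stay in the shares given without the hosts of the imprinted clusters. Whether reads can be placed among the near-identical copies was not tested. A copy from each of the families on chromosome 7 shows that both keep the C and D boxes, in capitals.

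Snord116l1, SNORD116 family, chr7:59894620-59894713, minus strand: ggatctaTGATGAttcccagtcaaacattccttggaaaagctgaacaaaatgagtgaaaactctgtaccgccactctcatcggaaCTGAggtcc
Gm25870, SNORD115 family, chr7:59619017-59619095, minus strand: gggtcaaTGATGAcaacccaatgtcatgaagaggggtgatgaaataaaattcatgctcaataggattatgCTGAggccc

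The records without a host were almost all uncovered. Of 637, 625 have a predicted-gene symbol, and none of these 625 was covered in any list of the replicates. The 634 uncovered ones lie a median of 271458.5 bp from the nearest peak, and 2.05% lie within 5000 bp of a peak, against 16.9% of the uncovered records with a same-strand host. The 3 covered records are Snora17 and both records of Snora43 on chromosome 2. GENCODE M21 lists no host there, but RefSeq places both inside Snhg7 on the same strand, so they are not free of a host. Their peak has a fold of 8.12. Snora17 was covered in both replicates, and Snora43 in replicate 2 with no base in replicate 1. In all, RefSeq gives a same-strand gene to 29 of the 637 records, including these 3, and none of the other 608 was covered. Snora17 and Snora43 are shown because they are the only covered records that GENCODE leaves without a host, with the ACA box in capitals where it lies 3 to 5 bases from the annotated end.

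Snora17, chr2:26639190-26639321, minus strand: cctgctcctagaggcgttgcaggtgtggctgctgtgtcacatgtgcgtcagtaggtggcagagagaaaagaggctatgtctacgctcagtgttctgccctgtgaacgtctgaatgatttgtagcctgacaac
Snora43, chr2:26637847-26637985, minus strand: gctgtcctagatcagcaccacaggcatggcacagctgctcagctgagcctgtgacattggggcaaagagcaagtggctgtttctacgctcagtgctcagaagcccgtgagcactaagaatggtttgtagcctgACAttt

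Snord118 and U3, known for promoters of their own, were not covered. Snord118 (U8, needed to process the RNAs of the large ribosomal subunit) lies 11193 bp from the nearest peak. RefSeq gives the product U8 to 3 other loci, of which 1, Gm23182 in Cs, was covered whole in both replicates. The 10 U3 records with an Rnu3 symbol, at 5 loci, had no base in any list of the replicates. The nearest, Rnu3a, lies 11468 bp from a peak and has no host. The other 4 loci lie in Tex14, a coding gene of the same strand that was not marked. Among other uncovered records without a GENCODE host are Scarna2 at 5317 bp from a peak, Snord104 at 13717 bp and Scarna17 at 2701 bp. Some such records not named here lie nearer to a peak. RefSeq places Snord104 in Gm36220 and Scarna17 in Gm41774 on the same strand. Of 7 records taken by symbol as RNAs known for ribosomal RNA processing, 3 were covered: the U14 copies Snord14a of Rps13, Snord14c and Snord14d. The other 4 were not, among them Snord14e, Snord22 of Snhg1 and Snord118. The U3 records are not among the 7. In the RefSeq SNORD14 family, 4 of 5 distinct copies were covered. D box letters are in capitals in the following sequences.

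Snord118, chr11:69073427-69073561, plus strand: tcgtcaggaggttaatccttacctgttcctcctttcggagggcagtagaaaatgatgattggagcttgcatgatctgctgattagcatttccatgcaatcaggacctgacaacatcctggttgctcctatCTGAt
Rnu3a, chr10:40258467-40258680, plus strand: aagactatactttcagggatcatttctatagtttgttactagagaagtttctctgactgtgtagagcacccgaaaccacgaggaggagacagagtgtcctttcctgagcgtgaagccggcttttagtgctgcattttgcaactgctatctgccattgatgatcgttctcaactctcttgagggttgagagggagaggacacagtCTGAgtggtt

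Records on the opposite strand of a gene cannot be processed from that gene's transcript. All 30 covered ones have a predicted-gene symbol, as do 223 of the 224 records of this class. All 30 lie in a gene marked at its 5′ end. Replicate 1's list covered 21 of the 224 records of this class and replicate 2's list 38. Of the 84 records of this class in a marked gene 35.7% were covered, and of the 140 in an unmarked gene none. With only records that have no base in the first 3 kb of the gene, these were 29 of 82 (35.4%) and none of 137. Of the 10 covered records with the highest fold, with 1 taken per host, 3 are of this class: Gm26419 opposite to Pak2 (32.3), Gm23772 opposite to B3gnt2 (31.3) and Gm23184 opposite to Nsd3 (28.6). The others of those 10 lie in same-strand coding hosts: Gm25617 in Gsk3b (29.9), Gm26165 in Snx5 (28.5), Gm22884 in G3bp1 (28.1), Gm23442 in Prrc2a (28.1), Gm23722 in Rnf149 (28.0), Gm26158 in Eif3a (26.7) and Gm23182 in Cs (26.4). The fold is that of the whole peak, as the authors gave it. The 143 peaks over covered records had a median fold of 12.4 and a median width of 4241 bp, against 7.37 and 3483 bp over the 15559 peaks of the list.

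Families with many copies had low shares. RefSeq gives a family to 1207 records. Families of 1 copy had 42 of 115 copies covered (36.5%), those of 2 to 4 copies 75 of 196 (38.3%), those of 5 to 9 copies 29 of 125 (23.2%), and those of 10 or more copies 25 of 749 (3.34%). The largest family, SNORA17, has 437 distinct copies, of which 304 have no host, and 8 were covered. SNORD115 with 131 copies and SNORD116 with 69 had none covered, SNORA48 had 3 of 28 and SNORA70 had 8 of 27. Hosting moved with family size: 91.3% of single copies and 38.6% of copies in families of 10 or more had a same-strand host, and 7.83% and 47.7% had no host. Among copies with a same-strand host the share covered was 39.0%, 52.2%, 35.3% and 4.84% from the smallest to the largest families. The last value includes the 131 copies of SNORD115 and the 69 of SNORD116.

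**Figure D5:**
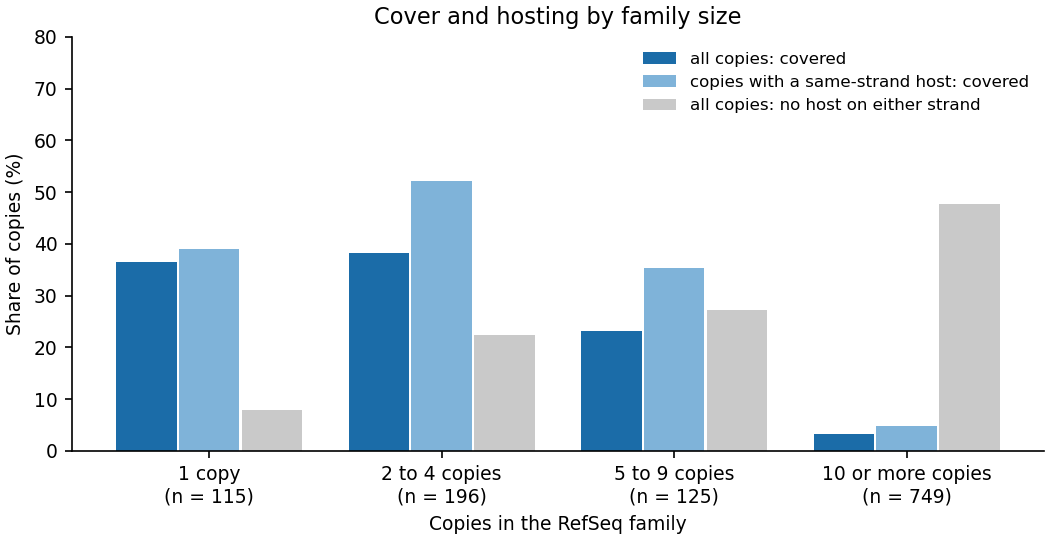
Share of copies, in percent, that were covered (all copies, dark blue; copies with a same-strand host, light blue) or had no host on either strand (grey), by the number of distinct copies in the RefSeq family; n is the number of copies. The share covered is 36.5% for single copies and 3.34% for families of 10 or more.

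Copies of SNORA17 had like identity to Snora17 in every host class. The median identity to Snora17 was 78.0% over the other 443 records, 78.7% for the 33 in same-strand coding hosts, 78.8% for the 21 in same-strand non-coding hosts, 78.8% for the 83 opposite to a gene and 77.6% for the 306 with no host. It was 83.3% for the 8 covered records (75.0% to 91.7%) and 78.0% for the 435 uncovered ones (47.7% to 91.0%), so the ranges overlap. Gm26419, covered opposite to Pak2, and Gm24350, which has no host and lies 939855 bp from a peak, can be set beside Snora17 above, with the ACA box in capitals where it lies 3 to 5 bases from the end.

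Gm26419, SNORA17 family, chr16:32065910-32066042, plus strand: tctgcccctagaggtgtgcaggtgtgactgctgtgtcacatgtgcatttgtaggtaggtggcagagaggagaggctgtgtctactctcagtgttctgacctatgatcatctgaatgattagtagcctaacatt
Gm24350, SNORA17 family, chr2:42809035-42809167, plus strand: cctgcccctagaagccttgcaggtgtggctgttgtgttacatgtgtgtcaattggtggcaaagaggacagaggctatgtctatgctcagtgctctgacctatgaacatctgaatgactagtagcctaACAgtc

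Box motifs were searched on the strand of the record, on its reverse complement and in a window of the same length 500 bp upstream. TGATGA with CTGA was found in 285 of 385 C/D records (74%), in none of the reverse complements and in 1 of the upstream windows (0.26%). It was found in 47 of 77 covered C/D records (61%) and in 238 of 308 uncovered ones (77.3%), which include SNORD115 and SNORD116. ACA 3 to 5 bases from the annotated end was found in 227 of 766 H/ACA records (29.6%), in 4.7% of reverse complements and in 5.87% of upstream windows. It was found in 59 of 88 covered H/ACA records (67%), in 168 of 678 uncovered ones (24.8%) and in 72 of 409 with no host (17.6%). Copies of SNORA17 other than Snora17 make up 435 of these uncovered records, and 7 of the 435 had it. They make up 306 of those with no host, and 4 of the 306 had it. The gap between covered and other records changed with the window used, and what sets it was not tested. With ACA allowed 2 to 5 bases from the end, a window chosen after seeing the data, the shares were 77.3% of covered, 64.2% of uncovered and 62.1% of no-host records. Snora17 and Gm26419 both end 2 bases after an ACA. The motifs mark letters in these windows and do not show whether a copy is expressed.

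Of 51 records of type scaRNA, 7 were covered (13.7%), 3 in replicate 1 and 10 in replicate 2. In same-strand hosts they lie in Snhg10, Snhg20, Ppp1r8 and Mgat5. In Mgat5, which adds branches to N-glycans, both Gm23370 records lie 126862 bp from the 5′ end, the farthest of all covered records, under a peak with a fold of 3.69, and were covered in replicate 2 with no base in replicate 1.

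The genes of the proteins that bind and assemble these RNAs were marked in 15 of 23 cases, 13 in replicate 1 and 18 in replicate 2, where 30.6% of all protein-coding genes are marked in the replicated list. All 4 core proteins of C/D particles were marked: the methyltransferase Fbl over 2438 bp of its first 3 kb, Nop56 over 2885 bp, Nop58 over 2875 bp and Snu13 over 2666 bp. All 4 of the H/ACA core were marked: Dkc1 over 546 bp, Nop10 over 949 bp, Nhp2 over 2548 bp and Gar1 over 2231 bp, of which Nop10 was not marked in replicate 1. Among assembly factors Nufip1, Znhit6, Ruvbl1, Nolc1, Wrap53, Rrp9 and Tgs1 were marked, of which Ruvbl1 was not marked in replicate 1. Shq1, Pih1d1 and Coil lay outside the replicated list and were marked in neither replicate, and Naf1, Znhit3 and Rpap3 were marked in replicate 2 alone. Ruvbl2 and Phax had peaks outside the first 3 kb.

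The labelled cell type was checked on marker genes. Of 6 macrophage genes, Spi1, Adgre1, Cd68, Itgam and Mertk were marked, and Csf1r carried 18778 bp of peak outside its first 3 kb. None of 8 marker genes of T cells, B cells, neutrophils and fibroblasts was marked, and the replicated list had no peak base in any of them.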

How the data were processed

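H3K79me2 ChIP-seq of 2 replicates was used as 4 deposited peak lists on mm10, per the labels and the deposited notes. The starting DNA was 10 ng a library, per the labels. The aligner, caller, thresholds and way of drawing up the replicated list, each not given in the sources used here, could not be weighed. Depth is unknown. The authors' fold of each peak, a ratio over the control, ranked and filtered peaks within a list. The authors' deposited −log10 q served 1 alternative, a minimum of 2.

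Merged peaks of each list were laid over GENCODE M21 on GRCm38.p6 (Python 3.11.15). A check with bedtools 2.31.1 gave the same covered bases for 1558 of 1558 records. A record with several same-strand hosts was assigned to a coding gene first, then to a gene with a symbol other than a clone name, then to the shortest. Families come from RefSeq products at a reciprocal overlap of at least 50% on the same strand. Box class comes from the GENCODE name or the RefSeq product. Sequences are those of GENCODE M21 and equal the genome for 1558 of 1558 records (pysam 0.24.0), and identity is 1 minus the edit distance over the longer length (edlib 1.3.9.post1). The code was tested on simulated peaks and hosts.

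The members, the host lists and the rules were chosen with earlier results of these data known. The text names the 10 hosts with the most covered loci, the 10 covered records with the highest fold and 1 per host, all covered records without a host, all Snhg hosts and Gas5, and uncovered or partly covered records by position in the annotation. Other named loci of those hosts were chosen after their values were seen. Alternatives were another list, stricter or looser cover, stricter peaks and other host rules. Some loci that these rules take are not reported here.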

Additional observations from a re-analysis of the deposited data

How the results depend on the processing

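Of 87 values of 9 counts under alternatives, 84 lay within 1.5 times the reported count. Covered records with a same-strand non-coding host numbered 18 instead of 29 under peaks of at least the list's median fold. Covered records with no host numbered 1 to 3 when either replicate was left out. That count was 0 instead of 3 once RefSeq genes were added as hosts, an alternative chosen after seeing the data, as was counting overlapping records as 1 locus. All covered records numbered 150 with only peaks of at least the median fold, 193 with every base required and 133 of 1193 with 1 record kept per host. Hosts with a covered locus numbered 88 in replicate 1's list and 119 in replicate 2's, of which 87 and 117 were marked there. No paired analysis was possible because the data form 1 group. Depth is unknown, so an uncovered record cannot be told apart from a mark too weak to be called. The 5′ end is the outermost annotated one, and a record in overlapping genes has 1 host here.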

Other observations

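Records covered in replicate 2 with no base in replicate 1 numbered 61, and records covered in replicate 1 with no base in replicate 2 numbered 3. The first of the former by position in the genome are Snora41 in Eef1b2, Gm26080 opposite to Clasp1, Gm23370 in Mgat5, Gm23212 in Gas5, Gm24637 opposite to Dcaf6, Snora36b in Rab3gap2, Snora43, which RefSeq places in Snhg7, and Gm24644 in Fbxo3. Gm26080, Snora36b and Gm24644 have no base under the replicated list.

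By chromosome the share of covered records ran from 5.06% on chromosome 6 (4 of 79) to 24.7% on chromosome 11 (23 of 93). Chromosome 7, which holds the SNORD115 and SNORD116 copies, had 16 of 263 covered (6.08%), and chromosome X 4 of 70 (5.71%). Hosts with a covered locus were shorter than hosts without, with medians of 6398 bp and 61050 bp, or 48819 bp for marked hosts without. Outside their covered and uncovered loci, hosts with a covered locus had a median of 59.8% of their bases under the list, and marked hosts without had 23.7%.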
